A study of Mus musculus with 12 samples.

Results

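The 10 genes described here are the 3 Gadd45 genes (Gadd45a, Gadd45b and Gadd45g), the 3 sestrins (Sesn1, Sesn2 and Sesn3) and 4 genes of the p53 arrest response (Cdkn1a, Mdm2, Ccng1 and Trp53inp1). They were chosen by symbol out of 56691 genes in a table of counts per gene. Each symbol had a single row. All 10 passed the filter on low counts, which kept 14394 genes. MC3T3-E1 is a pre-osteoblast line from mouse calvaria that lays down and mineralizes bone matrix, and the study followed its vitamin D metabolism and FGF23, a phosphate-regulating hormone. Cells of all 4 groups were differentiated until day 28, and the medium of each held 0.1 µM dexamethasone (a synthetic glucocorticoid), ascorbic acid at 50 µg/ml and beta-glycerophosphate (BGP), a source of phosphate, at 10 mM. From day 27, for 24 h, the groups were given 25-hydroxyvitamin D (25(OH)D) plus ZK191784, 25(OH)D plus BGP, 25(OH)D alone, or no such addition (control), with 3 libraries in each group. By the labels, ZK191784 was added at 100 µM, 25(OH)D was also at 100 µM, and the extra BGP was at 4 mM. The 25(OH)D dose is given as labelled, and its unit may be a slip. No group used here received ZK191784 without 25(OH)D. The labels name no separate cultures, so a p-value here reflects nothing but library-to-library spread, which may be technical.

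GADD45 proteins are small nuclear proteins induced by stress and DNA damage. They bind PCNA and the kinase CDK1, activate the kinase MAP3K4 upstream of p38 and JNK, and take part in active DNA demethylation. Sestrins are stress-inducible proteins that restrain the growth kinase complex mTORC1 through the GATOR complexes and AMPK, and SESN2 also senses leucine. The transcription factor p53 induces Cdkn1a (p21, an inhibitor of cyclin-dependent kinases), Mdm2 (the ubiquitin ligase that degrades p53), Ccng1 (cyclin G1, which brings a phosphatase to MDM2) and Trp53inp1 (a cofactor of p53 and autophagy protein). It also induces Gadd45a, Sesn1 and Sesn2. 25(OH)D is the circulating precursor of the active hormone 1,25-dihydroxyvitamin D, which acts through the vitamin D receptor (VDR), and the hormone is known to raise CDKN1A and GADD45A in several human cancer lines.

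The promoters are shown for the 4 genes whose counts differed most between the groups, to set their upstream letters beside their different directions. RefSeq promoter windows on GRCm38.p6 were found for 9 of the 10 genes, in 11 windows, and Trp53inp1 was not matched. Each sequence is the 250 bases before an annotated start, 5′ to 3′ on the gene's strand. Capitals mark the octamer ATTTGCAT, the CCAAT box, the E-box CACGTG and the TATA box TATAAA in the Gadd45 windows. In the Sesn1 windows they mark CCAAT and the GC box GGGCGG, whose 3 matches nearest to start 2 overlap. Matches on the other strand appear as their reverse complement, and GC boxes are left in lower case in the Gadd45 windows. The windows are Gadd45a at chr6:67037408-67037657 (minus strand), Gadd45b at chr10:80929841-80930090 (plus), Gadd45g at chr13:51846425-51846674 (plus), and the 2 starts of Sesn1 at chr10:41810324-41810573 and chr10:41887189-41887438 (both plus).
Gadd45a: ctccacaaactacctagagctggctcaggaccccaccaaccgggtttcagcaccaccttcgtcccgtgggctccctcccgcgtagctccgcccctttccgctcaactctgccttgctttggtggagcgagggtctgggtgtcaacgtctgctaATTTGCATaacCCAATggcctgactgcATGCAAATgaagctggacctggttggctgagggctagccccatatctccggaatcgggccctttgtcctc
Gadd45b: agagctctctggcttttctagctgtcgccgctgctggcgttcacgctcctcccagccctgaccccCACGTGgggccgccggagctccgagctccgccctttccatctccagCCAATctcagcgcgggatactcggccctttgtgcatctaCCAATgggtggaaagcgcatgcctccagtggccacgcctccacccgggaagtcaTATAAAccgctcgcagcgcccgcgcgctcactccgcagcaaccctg
Gadd45g: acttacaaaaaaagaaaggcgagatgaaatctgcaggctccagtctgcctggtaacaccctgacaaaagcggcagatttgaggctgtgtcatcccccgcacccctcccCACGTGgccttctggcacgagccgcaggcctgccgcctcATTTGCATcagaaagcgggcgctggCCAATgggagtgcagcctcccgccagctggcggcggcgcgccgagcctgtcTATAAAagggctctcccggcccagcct
Sesn1 start 1: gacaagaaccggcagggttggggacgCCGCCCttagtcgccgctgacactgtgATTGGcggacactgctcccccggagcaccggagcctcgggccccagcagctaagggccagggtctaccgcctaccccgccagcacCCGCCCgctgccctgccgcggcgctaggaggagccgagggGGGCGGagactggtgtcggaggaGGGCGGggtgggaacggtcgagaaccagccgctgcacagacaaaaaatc
Sesn1 start 2: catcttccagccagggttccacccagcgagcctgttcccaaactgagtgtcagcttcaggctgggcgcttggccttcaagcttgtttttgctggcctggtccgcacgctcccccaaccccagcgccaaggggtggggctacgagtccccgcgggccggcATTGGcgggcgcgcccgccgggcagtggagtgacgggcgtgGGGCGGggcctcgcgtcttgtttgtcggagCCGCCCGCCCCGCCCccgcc

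The octamer lies 2 times in the Gadd45a window, at −97 to −90 and −70 to −63 from the start, on opposite strands. It lies once in Gadd45g, at −103 to −96, and once in Sesn3, at −244 to −237. It is in 1.6% of the 32851 windows of the RefSeq table. TATAAA is in the Gadd45b and Gadd45g windows and in 12.4% of all windows, and CACGTG is in the same pair and in 6.02%. CCAAT is in 9 of the 11 windows (8 of the 9 matched genes) and in 33.8% of all windows. GGGCGG is in 8 of the 11 windows (7 of the 9 genes) and in 32.7% of all. Motifs were searched on both strands. Gadd45a, which was higher with 25(OH)D, and Gadd45g, which was lower, share the octamer and CCAAT in these letters.

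Letters of factors linked to the treatments were searched in the same 11 windows. The VDR hexamers searched singly, AGGTCA and AGTTCA, are in none of the 9 genes and in 24.2% of all windows. The paired VDR element (DR3, by name) is in none and in 0.0396%. The hexamers GGGTCA and GGTTCA, which the paired element also allows, were not searched singly. GGGTCA lies in the Sesn3 window and, on the other strand as TGACCC, in the Gadd45b window. Its share of all windows was not counted. The glucocorticoid response element (palindromic, by name) is in none, and in 0.00913% of windows. The AP-1 motif TGANTCA and the cyclic AMP element TGACGTCA are in none, with 6.75% and 1.55% of all windows. The FOXO motif GTAAACA is in Mdm2 and in 3.17%. A match is a description of letters and not a bound site, and a missing match says only that the letters are outside this window.

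The p53 sites of Cdkn1a and Ccng1 are shown because no other of the 9 genes holds a site of 20 letters. Whether p53 acts on either gene here was not tested. A p53 site is 2 abutting 10-letter units (the p53 unit, by name), and with at most 1 letter off over 20 letters it is in 25 windows of the table, or 0.0761%. This allowance was chosen after the letters had been seen. Of the 9 genes, Cdkn1a (start 1, at −51 to −32) and Ccng1 (at −195 to −176) hold such a site, and each is 1 letter off. A matching single unit lies inside each of these sites. Start 2 of Cdkn1a has no p53 unit, and counts per gene do not tell which start the cells used. A single unit is in 5 of the 11 windows, from 5 of the 9 genes (Gadd45a, Sesn1, Cdkn1a, Mdm2 and Ccng1), and in 7.13% of all windows. In Gadd45a and Mdm2 the best known p53 sites lie inside the gene, outside windows of this kind. Capitals mark the 20 letters of the site, with 10 flanking bases on each side, at chr17:29090918-29090957 (plus strand) for Cdkn1a and chr11:40755452-40755491 (minus strand) for Ccng1.
Cdkn1a: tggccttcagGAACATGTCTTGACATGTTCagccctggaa
Ccng1: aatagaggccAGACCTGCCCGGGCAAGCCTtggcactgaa

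**Figure D1:**
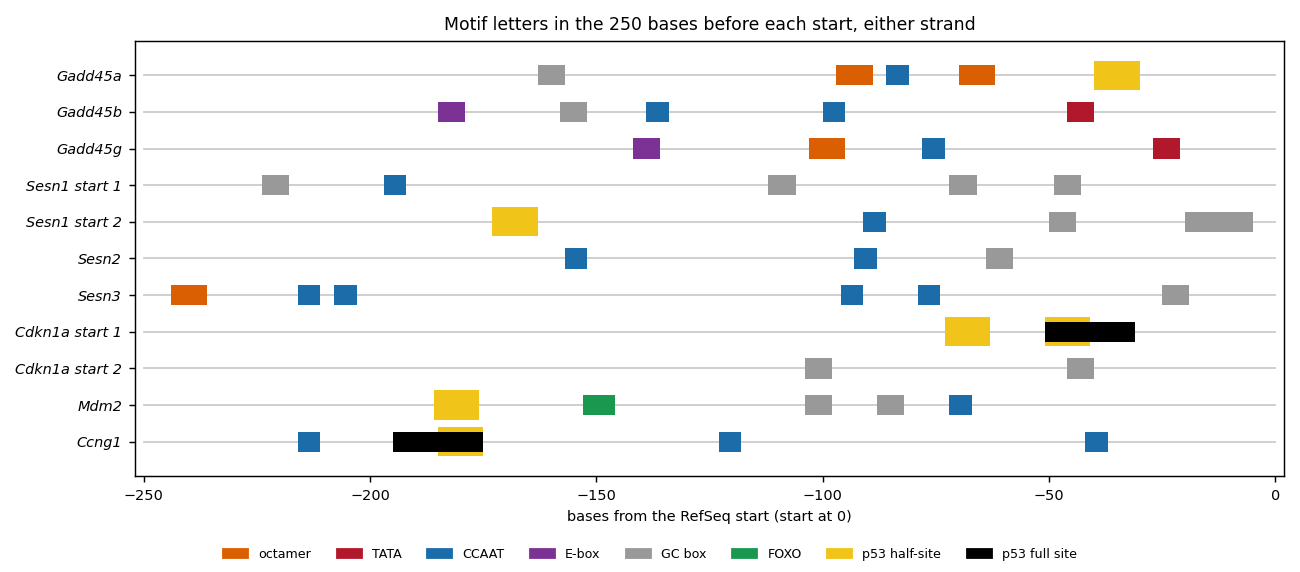
Positions of searched motifs in the 11 RefSeq promoter windows of 9 genes, as distance in bases from the annotated start, with a mark for each match on either strand. Gadd45a has 2 octamers, and the p53 sites of 20 letters lie in Cdkn1a and Ccng1.

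Libraries held 3318723 to 5170980 counts. All 7 osteoblast markers (Runx2, Sp7, Bglap, Alpl, Col1a1, Ibsp and Spp1) had counts in every group. Their sum was 30180 to 35313 CPM (counts per 1000000 counts of the library) with 25(OH)D plus ZK191784, 53029 to 66756 with 25(OH)D plus BGP, 51335 to 66367 with 25(OH)D alone, and 37808 to 54337 in control. The markers differed between 25(OH)D alone and control in both directions. Ibsp with 25(OH)D alone averaged 89.1 CPM, Col1a1 5798, Bglap 299 and Spp1 50673, while in control Ibsp averaged 13435 CPM, Col1a1 26698, Bglap 1045 and Spp1 3373. Under 25(OH)D plus ZK191784 Ibsp averaged 4636 CPM, Col1a1 16189, Bglap 1034 and Spp1 11114. Of the markers of other cell types, Myog (muscle) and Cdh5 (endothelium) had 0 counts in all libraries. Group means were 50.7 to 65.5 CPM for Acta1 (muscle), 23.3 to 36.5 for Pecam1 (endothelium), 91.7 to 119 for Sox9 (cartilage), and 181 to 243 for Ptprc and 36.5 to 48.0 for Cd68 (blood cells and macrophages), with Adgre1 and Csf1r at 2.14 or less. Col2a1, a cartilage collagen, averaged 1.17 CPM with 25(OH)D and 30.9 in control. Summed over 5 osteocyte markers, libraries had 15.5 to 19.5 CPM with 25(OH)D plus ZK191784, 15.3 to 16 with 25(OH)D plus BGP, 4.46 to 9.5 with 25(OH)D alone, and 24.6 to 30.9 in control. Summed over 4 adipocyte markers they had 4.57 to 7.29 CPM with 25(OH)D plus ZK191784, 1.93 to 2.82 with 25(OH)D plus BGP, 0.905 to 4.78 with 25(OH)D alone, and 5.04 to 8.12 in control. Both sums were lower with 25(OH)D alone than in control with no overlap of these groups, and they followed a few genes. Phex averaged 2.31 CPM with 25(OH)D and 19.2 in control, Mepe 0.186 with 25(OH)D and 4.73 in control, and Fabp4 0.839 with 25(OH)D and 5.78 in control. Dmp1 (2.94 with 25(OH)D and 2.46 in control), Fgf23 (0.589 with 25(OH)D and 0.07 in control) and Adipoq (0.662 with 25(OH)D and 0.083 in control) had no lower mean with 25(OH)D. The part of other cell types, and of the shift in osteoblast markers, in the results below was not tested. In bulk samples fewer cells of a type and less RNA per cell cannot be told apart. Libraries of 1 group also differed in the log2 ratio of ribosomal protein gene counts to counts of their pseudogenes and predicted Gm-numbered genes (the library ratio). It was −0.78, −1.12 and −1.57 with 25(OH)D plus ZK191784, −1.65, −0.44 and −1.11 with 25(OH)D plus BGP, −0.44, −1.15 and −1.75 with 25(OH)D alone, and −1.67, −1.78 and −0.57 in control. Its group means lay between −1.34 and −1.07, and the 4 groups overlapped.

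Exposure to 25(OH)D alone for 24 h split the Gadd45 family. Gadd45a was 49.7-fold and Gadd45b 2.84-fold higher than in control, while Gadd45g was 6.14-fold lower in 25(OH)D than in control. Among the sestrins Sesn1 was 8.6-fold higher, and Sesn2 and Sesn3 did not pass the test. Cdkn1a, Mdm2, Ccng1 and Trp53inp1 did not pass either. Genes were called by edgeR's quasi-likelihood test at a Benjamini-Hochberg adjusted p under 0.05 over all genes tested. In all 4 of the 10 genes were called, 3 higher and 1 lower, beside 8.68% of all genes tested, 4.76% higher and 3.93% lower. The median log2 fold change was 0.21 over the 10 genes and −0.05 over all genes tested.

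Gadd45a, the classic growth arrest and DNA damage gene, had 682, 495 and 262 CPM (from here on TMM-scaled) in the 25(OH)D libraries and 7.19, 6.32 and 15.5 CPM in the control libraries. The groups lay far apart, although the values within 25(OH)D themselves spread widely. The control values rest on 30 to 65 counts per library. Its log2 fold change was 5.63 ± 0.53 (SE; 95% interval 4.47 to 6.79; edgeR adjusted p = 2.53e-05), and 3 of 3 libraries were above every control.

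Gadd45b, an early response gene of the family, had 33.2, 33.0 and 25.4 CPM with 25(OH)D and 8.63, 8.85 and 14.7 CPM in control. The groups did not overlap, and control library 3 was the nearest to the 25(OH)D values. This was a log2 fold change of 1.51 ± 0.29 (95% interval 0.88 to 2.13; edgeR adjusted p = 0.005).

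Gadd45g, which in other tissues is tied to differentiation, ran the other way. It had 9.36, 14.0 and 8.98 CPM with 25(OH)D and 70.7, 71.4 and 57.3 CPM in control. These rest on 34 to 58 counts per 25(OH)D library and 241 to 339 counts per control library. Every 25(OH)D library lay far below the lowest control. On the log2 scale this was −2.62 ± 0.20 (95% interval −3.06 to −2.18; edgeR adjusted p = 4.91e-06).

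Sesn1, the sestrin first described as a p53 target, had 757, 950 and 612 CPM with 25(OH)D and 76.0, 108 and 85.2 CPM in control. No values of the groups overlapped or came close. In log2 terms the change was 3.10 ± 0.25 (95% interval 2.56 to 3.65; edgeR adjusted p = 7.52e-06). The calls of Gadd45a, Gadd45b, Gadd45g and Sesn1 were kept in each of the 6 fits that left out 1 library, with the highest adjusted p, 0.0331, for Gadd45b.

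Sesn2, the leucine-sensing sestrin, had 19.0, 18.1 and 20.3 CPM with 25(OH)D and 17.7, 16 and 16.4 CPM in control. These groups did not overlap, as was so for 5 of the 10 genes beside 21.9% of all genes tested, but the difference was small. The log2 fold change was 0.19, with a 95% interval of −0.27 to 0.66 (edgeR adjusted p = 0.675). Sesn3, a FOXO-induced sestrin in mouse cells, averaged 25.9 ± 2.71 CPM with 25(OH)D and 25.7 ± 5.34 CPM in control (SD, n = 3 each), and its values overlapped. Its log2 change was 0.01, with a 95% interval of −0.42 to 0.44 (edgeR adjusted p = 0.986).

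The arrest genes overlapped between the groups. Cdkn1a had 295, 332 and 264 CPM with 25(OH)D and 288, 347 and 350 CPM in control. Its log2 fold change was −0.15, and the 95% interval of −0.56 to 0.27 leaves out a rise of the size seen in Gadd45b (edgeR adjusted p = 0.73). Mdm2 averaged 89 ± 26.4 CPM with 25(OH)D and 76 ± 36.4 CPM in control, and Ccng1 averaged 123 ± 22.7 CPM with 25(OH)D and 137 ± 51.9 CPM in control (SD, n = 3 each). Control library 3 was the highest control in both genes and lifted the mean and the SD of that group. The log2 fold change was 0.23 for Mdm2, with an interval of −0.52 to 0.98, and −0.16 for Ccng1, with an interval of −0.76 to 0.44.

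Trp53inp1 was the nearest of the arrest genes to a call. It had 144, 140 and 89.5 CPM with 25(OH)D and 61.9, 72.5 and 118 CPM in control. Control library 3 lay above the lowest 25(OH)D library, so the groups overlapped. Its log2 change was 0.57 ± 0.27 (95% interval −0.02 to 1.15; edgeR adjusted p = 0.275). Without control library 3 it was 0.90 and passed (adjusted p = 0.0401), and when the library ratio was added to the fit it was 0.46 and passed (adjusted p = 0.00675).

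**Figure D2:**
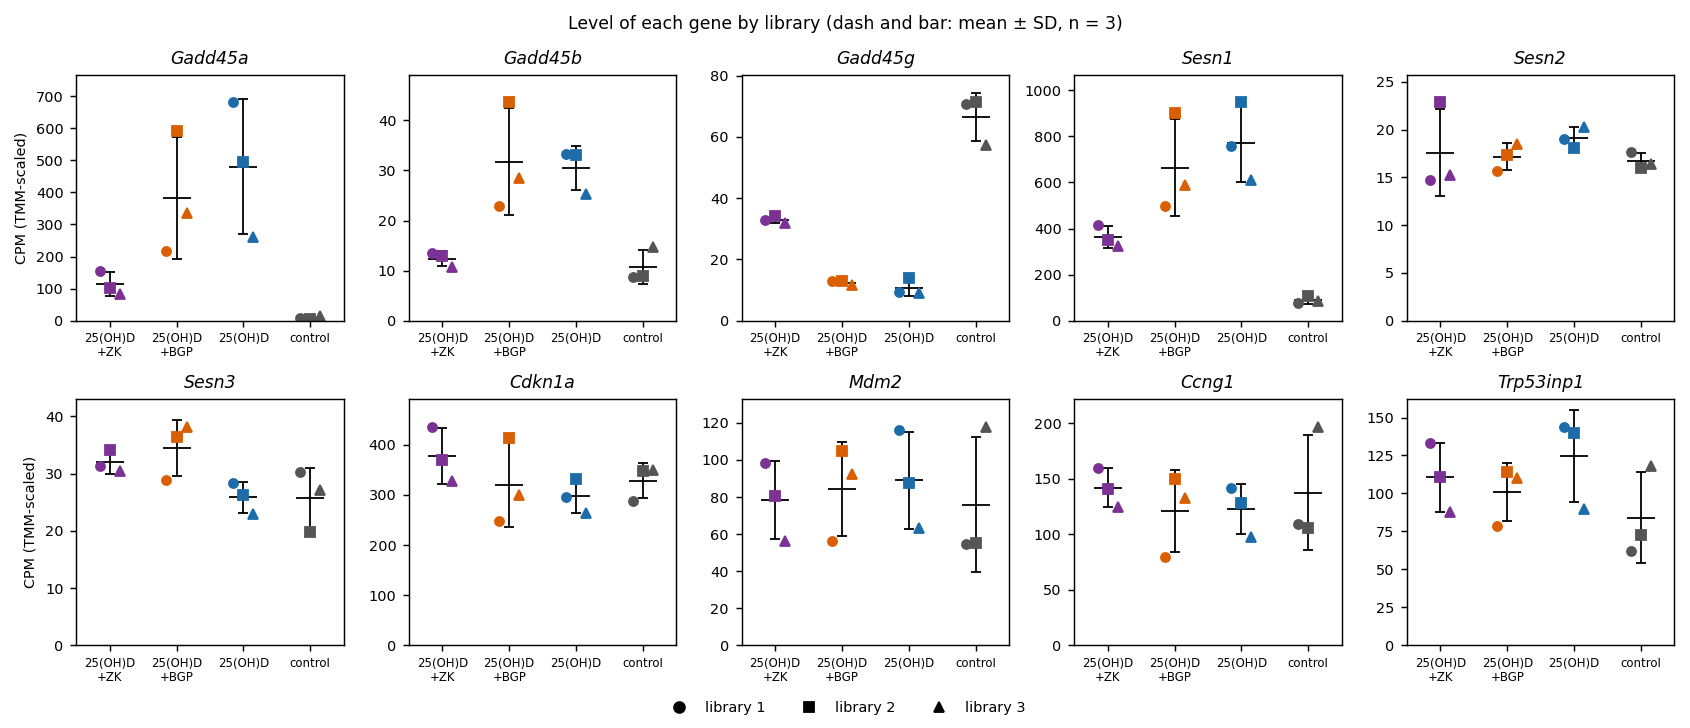
CPM (linear scale from 0) of the 10 genes in each of the 12 libraries, by group, where points are libraries, dashes group means and bars the SD (n = 3). Gadd45a and Sesn1 are lowest and Gadd45g highest in control, while Cdkn1a, Mdm2 and Ccng1 overlap between all groups.

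Adding BGP to 25(OH)D gave no call among the 10 genes or elsewhere. Of the 14394 genes tested 0% were called by edgeR and 0 by DESeq2. At an unadjusted p under 0.05 there were 268 genes and 0 of the 10. Gadd45a had 217, 591 and 337 CPM with 25(OH)D plus BGP and 682, 495 and 262 CPM with 25(OH)D alone, and the groups overlapped. Gadd45g had 12.9, 12.8 and 11.6 CPM with BGP added, within the span of the 25(OH)D libraries. The study's BGP addition came on top of 10 mM BGP in the medium of both groups.

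Sesn3 was the single gene of the 10 whose values did not overlap there, beside 6.04% of all genes. It had 28.9, 36.4 and 38.2 CPM with 25(OH)D plus BGP and 28.3, 26.3 and 23.0 CPM with 25(OH)D. The nearest libraries of the groups were almost level. The difference on the log2 scale was 0.42 ± 0.20 (95% interval −0.01 to 0.85; unadjusted p = 0.0557, edgeR adjusted p = 1).

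Against control, 25(OH)D plus BGP gave called differences in Gadd45a, Gadd45b, Gadd45g and Sesn1, or 4 of the 10 genes beside 8.25% of all genes tested, 3 of them higher beside 3.9% and 1 lower beside 4.35%. This comparison shares the control libraries with that of 25(OH)D alone. Gadd45a averaged 382 ± 191 CPM with 25(OH)D plus BGP and 9.66 ± 5.04 CPM in control, and its log2 fold change was 5.30 ± 0.53 (edgeR adjusted p = 4.07e-05). Gadd45b had 23.0, 43.7 and 28.5 CPM with 25(OH)D plus BGP, all above the highest control at 14.7 CPM, and its log2 fold change was 1.56 ± 0.29 (adjusted p = 0.00399). Gadd45g lay below every control library, with a log2 fold change of −2.42 ± 0.20 (adjusted p = 9.55e-06). Sesn1 had 500, 903 and 591 CPM with 25(OH)D plus BGP against 76.0, 108 and 85.2 CPM in control, and its log2 fold change was 2.89 ± 0.25 (adjusted p = 1.35e-05). In these 4 genes the groups did not overlap, beside 21% of all genes.

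ZK191784, a compound that the labels name by its code alone, was tested together with 25(OH)D. With it Gadd45a, Gadd45b and Sesn1 were 4.22-fold, 2.46-fold and 2.13-fold lower in 25(OH)D plus ZK191784 than in 25(OH)D alone, and Gadd45g was 3.05-fold higher. Thus 4 of the 10 genes were called, 1 higher and 3 lower, beside 3.53% of all genes, 1.42% higher and 2.11% lower. Sesn2, Sesn3 and the 4 arrest genes did not pass. The median log2 fold change was −0.15 over the 10 genes and 0.02 over all genes. The comparison shares the 25(OH)D libraries with that against control, so the values of the comparisons are not independent.

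Gadd45g had 33, 34 and 32 CPM with 25(OH)D plus ZK191784 and 9.36, 14.0 and 8.98 CPM with 25(OH)D. The ZK191784 libraries were almost level with each other and all lay above the highest 25(OH)D library. This gave a log2 fold change of 1.61 ± 0.20 (95% interval 1.17 to 2.04; edgeR adjusted p = 6.54e-04). The call was kept in each of the 6 fits that left out 1 library, with an adjusted p of at most 0.0057.

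Gadd45a had 155, 103 and 83.3 CPM with 25(OH)D plus ZK191784 and 682, 495 and 262 CPM with 25(OH)D. The groups did not overlap, and 25(OH)D library 3 was the nearest to the ZK191784 libraries. The log2 fold change was −2.08 ± 0.44 (95% interval −3.04 to −1.11; edgeR adjusted p = 0.0207). The call was lost without ZK191784 library 2 or 3 or 25(OH)D library 1 or 2 (adjusted p of 0.117, 0.109, 0.0844 and 0.0707), and without the filter on low counts the value was −2.05 (adjusted p = 0.204).

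Sesn1 had 417, 351 and 323 CPM with 25(OH)D plus ZK191784 and 757, 950 and 612 CPM with 25(OH)D. All 3 ZK191784 libraries lay below the lowest 25(OH)D library. On the log2 scale the difference was −1.09 ± 0.23 (95% interval −1.60 to −0.58; edgeR adjusted p = 0.0215). The call was lost without ZK191784 library 2 or 3 or 25(OH)D library 1 or 2 (adjusted p of 0.113, 0.109, 0.0584 and 0.113).

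Gadd45b had 13.5, 13 and 10.7 CPM with 25(OH)D plus ZK191784 and 33.2, 33.0 and 25.4 CPM with 25(OH)D. The groups did not overlap. This came to a log2 fold change of −1.30 ± 0.29 (95% interval −1.92 to −0.68; edgeR adjusted p = 0.0239). The call was lost without ZK191784 library 1, 2 or 3 or 25(OH)D library 1 or 2, with adjusted p between 0.0692 and 0.117.

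Among the uncalled genes Sesn3 had 31.3, 34.2 and 30.4 CPM with 25(OH)D plus ZK191784 and 28.3, 26.3 and 23.0 CPM with 25(OH)D. It was the fifth gene whose groups did not overlap, beside 17.6% of all genes. Here the log2 fold change was 0.31, with a 95% interval of −0.12 to 0.74. Cdkn1a had 436, 369 and 327 CPM with 25(OH)D plus ZK191784 and 295, 332 and 264 CPM with 25(OH)D, which overlapped. Its log2 fold change was 0.34, with a 95% interval of −0.07 to 0.76 (edgeR adjusted p = 0.585), and when the library ratio entered the fit it was 0.35 and passed (adjusted p = 0.0477). Sesn2, Mdm2, Ccng1 and Trp53inp1 had log2 fold changes between −0.18 and 0.21, each with an interval that spans 0.

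Set against control, cells given 25(OH)D plus ZK191784 still had more Gadd45a and Sesn1 RNA and less Gadd45g RNA, which is 3 of the 10 genes beside 0.723% of all genes tested, 2 of them higher beside 0.507% and 1 lower beside 0.215%. Gadd45a averaged 114 ± 36.8 CPM with 25(OH)D plus ZK191784 and 9.66 ± 5.04 CPM in control (SD, n = 3 each), and its log2 fold change was 3.56 ± 0.49 (95% interval 2.48 to 4.63; edgeR adjusted p = 0.00464). Without the filter on low counts that call was narrowly lost, at 3.59 (adjusted p = 0.0512). Sesn1 averaged 364 ± 48.1 CPM with 25(OH)D plus ZK191784 and 89.8 ± 16.7 CPM in control, and its log2 fold change was 2.02 ± 0.24 (95% interval 1.49 to 2.54; adjusted p = 0.00151). Both were above every control library.

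Gadd45g averaged 33 ± 1.01 CPM with 25(OH)D plus ZK191784 and 66.5 ± 7.95 CPM in control (SD, n = 3 each). Its ZK191784 libraries lay between those of 25(OH)D and control without touching either. The log2 fold change against control was −1.01 ± 0.19 (95% interval −1.42 to −0.60; edgeR adjusted p = 0.0282). The call was lost without ZK191784 library 1, 2 or 3 or control library 1 or 2 (adjusted p between 0.103 and 0.151), and in a fit of these 2 groups alone (adjusted p = 0.0804). Gadd45b had 13.5, 13 and 10.7 CPM with 25(OH)D plus ZK191784 against 8.63, 8.85 and 14.7 CPM in control, which overlapped. Its log2 fold change was 0.21, and the 95% interval of −0.43 to 0.84 still holds a rise of the size of 1.79-fold (edgeR adjusted p = 0.998). The groups did not overlap in 4 of the 10 genes (Gadd45a, Gadd45g, Sesn1 and Sesn3), beside 11.8% of all genes tested.

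**Figure D3:**
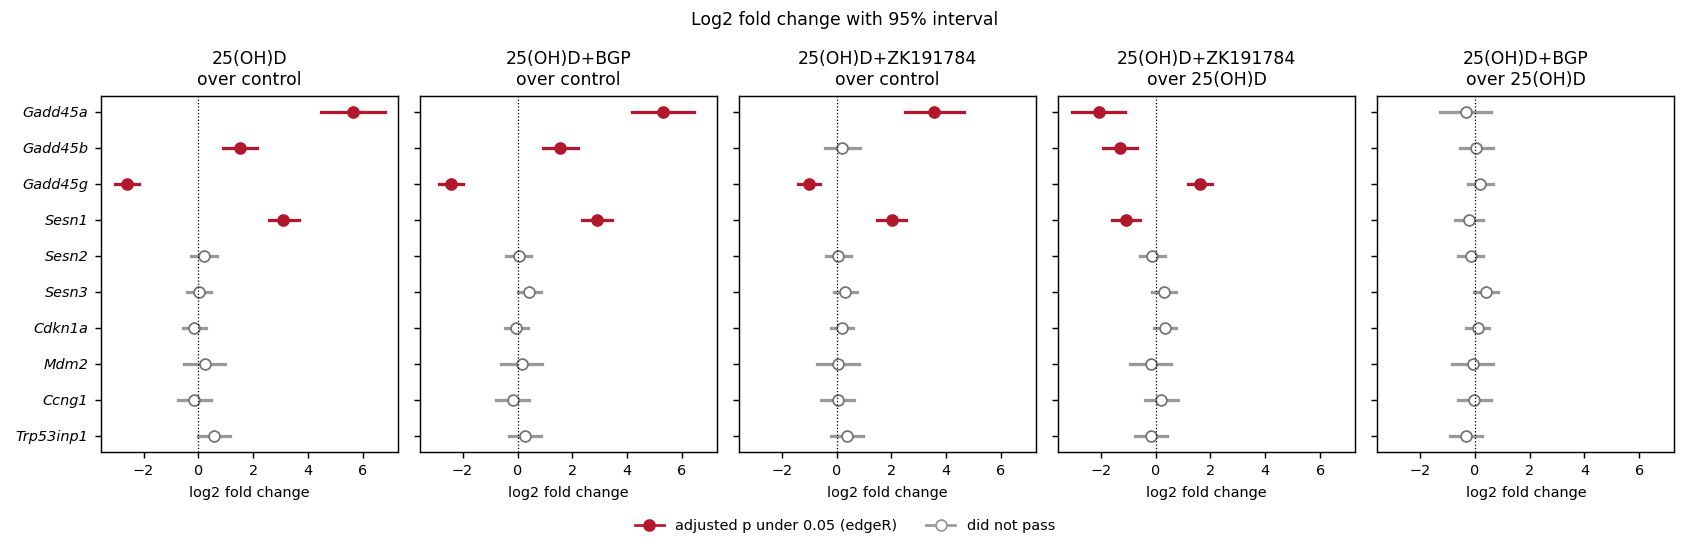
Log2 fold change of each of the 10 genes in the comparisons, with 95% intervals from the edgeR fit and filled points where the adjusted p was under 0.05. Gadd45a, Gadd45b and Sesn1 lie above 0 and Gadd45g below 0 for 25(OH)D against control, with the opposite signs for 25(OH)D plus ZK191784 against 25(OH)D.

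The order of group means was the same for Gadd45a and Sesn1, with control lowest, then 25(OH)D plus ZK191784, 25(OH)D plus BGP and 25(OH)D. In both genes the neighbours 25(OH)D plus BGP and 25(OH)D overlapped, and the other neighbours did not. For Gadd45g the order was 25(OH)D, 25(OH)D plus BGP, 25(OH)D plus ZK191784 and control, and again the 25(OH)D and 25(OH)D plus BGP libraries alone overlapped. For Gadd45b, control and 25(OH)D plus ZK191784 overlapped, as did 25(OH)D and 25(OH)D plus BGP. Replicate spread differed between the genes. Gadd45a had a coefficient of variation of 43.9% in 25(OH)D and 52.2% in control, while Gadd45g had 25.8% in 25(OH)D and 12% in control.

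The spread within groups ran beside the library ratio in some of the genes. Gadd45a and Ccng1 had their 3 libraries in the same order as the ratio in all 4 groups. Gadd45b, Mdm2 and Trp53inp1 had it in 3 groups, Sesn1 and Cdkn1a in 2, Sesn3 in 1, and Gadd45g and Sesn2 in 0. A reverse order was not scored, and in control Gadd45g ran in the reverse order of the ratio. How many of all genes tested run in the order of the ratio was not counted, so whether this is particular to the 10 genes is not known. When the ratio was a covariate the log2 fold change of Gadd45a was 5.41 for 25(OH)D against control and −1.97 for 25(OH)D plus ZK191784 against 25(OH)D. In the first of these comparisons it was −2.59 for Gadd45g, 3.02 for Sesn1 and 1.41 for Gadd45b, and in the second 1.60 for Gadd45g, −1.08 for Sesn1 and −1.28 for Gadd45b. These lie within 1 SE of the values without the covariate, and all 8 were called.

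**Figure D4:**
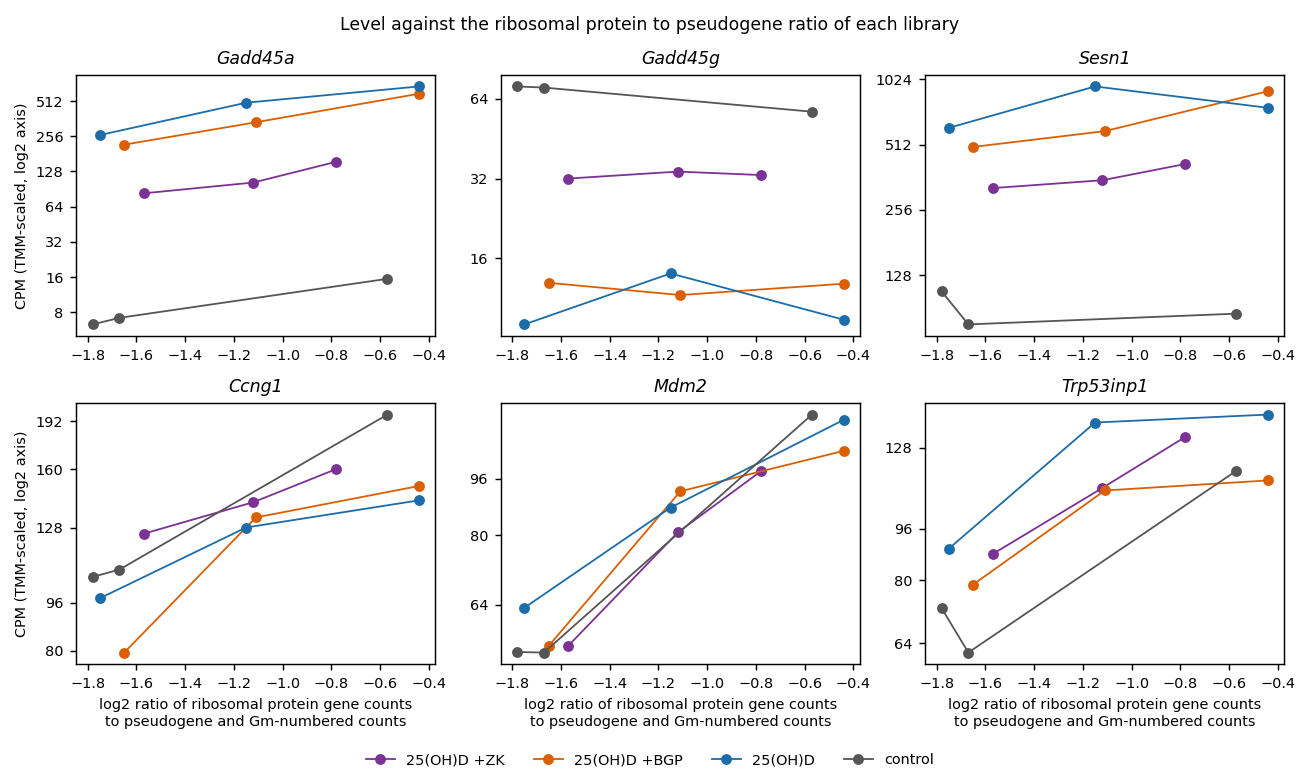
CPM of selected genes (log scale) against the log2 library ratio of each of the 12 libraries, by group. Within every group Gadd45a and Ccng1 are higher where the ratio is higher, while Gadd45g has this order in none and the reverse order in control.

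Genes whose pattern over the 12 libraries was most like these were found by the smallest root mean square difference of centred log2 CPM, among 11426 genes whose average log2 CPM reached 1. For Gadd45g they were Kctd15 at 0.20, Pycr1 at 0.24 and Mef2c at 0.25, with a median of 1.12 over all genes compared. Pycr1 encodes an enzyme of proline synthesis and Mef2c a transcription factor. Mef2c averaged 184 ± 6.89 CPM with 25(OH)D plus ZK191784, 62.3 ± 11.9 with 25(OH)D plus BGP, 77.5 ± 7.4 with 25(OH)D alone and 415 ± 89.5 in control (SD, n = 3 each). For Sesn1 they were Klhl33 at 0.19, Micall2 at 0.27 and Tdrp at 0.31, with a median of 1.29. In control, Micall2 had 4 to 15 counts per library and Tdrp 0 to 1, so their patterns rest on few counts. Klhl33 averaged 364 ± 65 CPM with 25(OH)D plus ZK191784, 629 ± 163 with 25(OH)D plus BGP, 724 ± 145 with 25(OH)D alone and 73.1 ± 10.7 in control. For Gadd45a the nearest were Orm2 at 0.43, Tgm2 at 0.52 and Slc41a3 at 0.54, with a median of 2.29. The measure grows with the size of a gene's own changes, so it does not rank Gadd45a against Gadd45g or Sesn1. Tgm2 is transglutaminase 2, a protein crosslinking enzyme, and averaged 38.3 ± 3.03 CPM with 25(OH)D plus ZK191784, 193 ± 40.5 with 25(OH)D plus BGP, 212 ± 34.8 with 25(OH)D alone and 4.54 ± 0.716 in control. Orm2 has near-identical copies that may share reads, so its level is uncertain.

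Other p53 targets were counted from a list of 40 genes, of which 35 were tested. Against control, 25(OH)D gave 4 that were higher and 1 that was lower, beside 4.76% of all genes higher and 3.93% lower, with a median log2 fold change of 0.09 over the list and −0.05 over all genes. Xpc, a DNA damage recognition protein, averaged 90.2 ± 3.92 CPM with 25(OH)D and 36.4 ± 8.53 CPM in control, and its log2 fold change was 1.31 ± 0.17 (edgeR adjusted p = 2.84e-04). Gdf15, a secreted stress cytokine, averaged 61.1 ± 12.9 CPM with 25(OH)D and 16.4 ± 4.61 CPM in control, at 1.89 ± 0.28 (adjusted p = 7.62e-04). Ddit4 (REDD1), an inhibitor of mTORC1 that glucocorticoids and hypoxia also induce, averaged 629 ± 253 CPM with 25(OH)D and 145 ± 58.5 CPM in control, at 2.12 ± 0.42 (adjusted p = 0.00647), and lost its call without the filter on low counts (adjusted p = 0.08). Steap3, an endosomal iron reductase, averaged 0.843 ± 0.504 CPM with 25(OH)D and 4.59 ± 1.22 CPM in control, at −2.39 ± 0.57 (adjusted p = 0.0192), on 1 to 5 counts per 25(OH)D library. Its call was lost without 25(OH)D library 1 or control library 3 (adjusted p of 0.0787 and 0.0617) and in a fit of the 2 groups alone (adjusted p = 0.0524). The fourth gene that was higher was Tigar, named after its values were seen. The count of 5 was 3 without 25(OH)D library 1 and 11 when the fit held the library ratio. With that ratio 2858 of the 14394 genes tested were called, beside 1250 without it.

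With 25(OH)D plus ZK191784 against 25(OH)D, 0 of the 35 other p53 targets were higher and 2 lower, beside 1.42% of all genes higher and 2.11% lower, with a median log2 fold change of −0.19 over the list and 0.02 over all genes. Gdf15 averaged 22.6 ± 2.29 CPM with 25(OH)D plus ZK191784 and 61.1 ± 12.9 CPM with 25(OH)D, at −1.43 ± 0.27 (edgeR adjusted p = 0.00984). Its call was lost without ZK191784 library 1 or 2 (adjusted p of 0.0588 and 0.0615). Xpc averaged 53.3 ± 4.7 CPM with 25(OH)D plus ZK191784 and 90.2 ± 3.92 CPM with 25(OH)D, at −0.76 ± 0.17 (adjusted p = 0.0229), and its call was lost in 5 of 6 fits that left out a library, with adjusted p up to 0.135. The count of 2 was 0 without ZK191784 library 1 or 2, and 1 without ZK191784 library 3 or 25(OH)D library 1 or 2. It was 6 when the fit held the library ratio, beside 1642 of the 14394 genes tested. With 25(OH)D plus BGP against control 4 were higher and 2 lower, beside 3.9% of all genes higher and 4.35% lower. The sum of 6 was 3 without BGP library 3 or control library 2 and in a fit of the 2 groups alone. It was 13 with the library ratio, beside 2680 of the 14394 genes tested. Ptprv, a phosphatase gene, averaged 4.1 ± 1.3 CPM with 25(OH)D plus BGP and 15.6 ± 9.05 CPM in control, at −1.93 ± 0.39 (adjusted p = 0.00781). It lost the call without BGP library 3 (adjusted p = 0.053) and in a fit of the 2 groups alone. Between 25(OH)D plus ZK191784 and control edgeR called 0 of the 35, with 5 at an unadjusted p under 0.05, beside 0.723% of all genes called. DESeq2 called 2, where it called 265 of the 14394 genes tested. edgeR with the library ratio called 3, where it called 673 of the 14394.

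The list of p53 and its regulators had 16 of 18 genes tested, and 1 was higher with 25(OH)D than in control, a share near the 4.76% of all genes. The count was 3 with the library ratio, beside 2858 of the 14394 genes tested, and 2 by DESeq2. When ZK191784 was added to 25(OH)D edgeR called 0 against 25(OH)D, with 3 at an unadjusted p under 0.05. There 2 were called with the library ratio, 1 by DESeq2, 1 without the filter on low counts and 1 without 25(OH)D library 3. Of the 14394 genes tested 1642 were called with the ratio and 797 by DESeq2. The gene that was higher with 25(OH)D was Trp63, a p53 family transcription factor best known from epithelia, with 23.7 ± 10.2 CPM with 25(OH)D and 2.69 ± 1.56 CPM in control, and a log2 fold change of 3.11 ± 0.48 (edgeR adjusted p = 0.00106). Trp63 with ZK191784 added averaged 7.56 ± 1.8 CPM, and the difference from 25(OH)D was −1.64 ± 0.43 (adjusted p = 0.0627). The RNA of p53 itself, Trp53, averaged 8.48 ± 2.24 CPM with 25(OH)D and 6.89 ± 1.77 CPM in control, at 0.30 ± 0.30 (adjusted p = 0.648). Mdm4, an inhibitor of p53 related to Mdm2, averaged 100 ± 24.1 CPM with 25(OH)D and 65.2 ± 13.3 CPM in control, at 0.62 ± 0.25 (adjusted p = 0.171), and passed when the fit held the library ratio, at 0.49 (adjusted p = 0.00333). Counts of RNA say nothing of p53 protein, which is controlled mainly by its degradation.

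Partners of GADD45 proteins, such as Map3k4, the p38 and JNK kinases, Pcna, Cdk1 and the Tet enzymes, were tested for 16 of 18 genes. edgeR called 0 with 25(OH)D against control, where 3 had an unadjusted p under 0.05, and DESeq2 called 0. It also called 0 with 25(OH)D plus ZK191784 against 25(OH)D, where 1 had an unadjusted p under 0.05, and DESeq2 again called 0. When the fit held the library ratio there were 2 calls in each of these comparisons. Of the 14394 genes tested, that fit called 2858 for 25(OH)D against control and 1642 for 25(OH)D plus ZK191784 against 25(OH)D. The list's median log2 fold change was −0.08 for 25(OH)D against control, beside −0.05 over all genes, and 0.12 for 25(OH)D plus ZK191784 against 25(OH)D, beside 0.02.

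Partners of sestrins and the mTORC1 pathway were tested for 28 of 29 genes, and 1 was higher with 25(OH)D than in control, a share near or below the 4.76% of all genes. This was Sqstm1 (p62), an autophagy receptor that binds sestrins, with 1178 ± 247 CPM with 25(OH)D and 476 ± 132 CPM in control and a log2 fold change of 1.31 ± 0.21 (edgeR adjusted p = 0.00147). Sqstm1 with ZK191784 added averaged 616 ± 40.6 CPM, at −0.94 ± 0.21 against 25(OH)D (adjusted p = 0.0263). That call was lost in 5 of 6 fits that left out a library, all but the one without 25(OH)D library 3, with adjusted p up to 0.124. This single lower gene of 28 stands beside 2.11% of all genes, which is no result about the list. The list's median log2 fold change was −0.01 with 25(OH)D against control, beside −0.05 over all genes.

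Of 20 further CDK inhibitors, cyclins and partners 16 were tested, and 2 were lower with 25(OH)D than in control, beside 3.93% of all genes, with a median log2 fold change of −0.24 over the list and −0.05 over all genes. Ccnd2, cyclin D2, averaged 396 ± 42.4 CPM with 25(OH)D and 656 ± 48.2 CPM in control, at −0.73 ± 0.13 (edgeR adjusted p = 0.0024). E2f1, a transcription factor of the S phase, averaged 6.17 ± 0.316 CPM with 25(OH)D and 15 ± 5.31 CPM in control, at −1.28 ± 0.36 (adjusted p = 0.0434), and lost its call in each of the 6 fits that left out 1 library and in a fit of the 2 groups alone (adjusted p = 0.0693). The count of 2 was 1 in all of these and 6 when the fit held the library ratio. That last fit called 2858 of the 14394 genes tested. With 25(OH)D plus ZK191784 against 25(OH)D edgeR called 0 of the 16, with 0 at an unadjusted p under 0.05, and DESeq2 called 0. With the library ratio edgeR called 2, beside 1642 of the 14394 genes tested.

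Transcription factors known to act on these genes (FOXO, ATF4, NRF2 and others) were tested for 11 of 12, and 3 were higher with 25(OH)D than in control, beside 4.76% of all genes. Cebpb, a leucine zipper factor, averaged 1494 ± 172 CPM with 25(OH)D and 439 ± 29.9 CPM in control, at 1.77 ± 0.14 (edgeR adjusted p = 4.68e-06). Foxo3, a forkhead factor that induces sestrins, averaged 611 ± 50.3 CPM with 25(OH)D and 348 ± 46.9 CPM in control, at 0.81 ± 0.14 (adjusted p = 0.00191). Egr1, an immediate early factor, averaged 235 ± 30.3 CPM with 25(OH)D and 134 ± 7.91 CPM in control, at 0.81 ± 0.15 (adjusted p = 0.00322). The list's median was −0.09, beside −0.05 over all genes. With 25(OH)D plus ZK191784 against 25(OH)D 2 were lower, beside 2.11% of all genes. When the fit held the library ratio 4 were called, beside 1642 of the 14394 genes tested. Cebpb averaged 696 ± 62.8 CPM with 25(OH)D plus ZK191784 and 1494 ± 172 CPM with 25(OH)D, at −1.10 ± 0.13 against 25(OH)D (adjusted p = 5.23e-04), and kept the call in all 6 fits that left out a library. Egr1 averaged 157 ± 14.8 CPM with ZK191784 added, at −0.58 ± 0.15 (adjusted p = 0.0489), and lost the call in 5 of 6 fits that left out a library, without the filter on low counts and in a fit of the 2 groups alone. Against control Cebpb was also higher with 25(OH)D plus ZK191784, at 0.66 ± 0.13 (adjusted p = 0.0421), a call lost in 5 of 6 fits that left out a library, with adjusted p up to 0.259, and in a fit of the 2 groups alone.

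Apart from Trp53 and Mdm4, genes of these lists were named because they were called, so the number of named genes is no result. With 25(OH)D plus BGP against control edgeR called 1 of the 16 genes of p53 and its regulators and 0 of the 16 GADD45 partners. It called 1 of the 28 sestrin partners, 1 of the 16 CDK inhibitors and cyclins and 3 of the 11 transcription factors. These stand beside 8.25% of all genes tested. Named genes called there, besides Ptprv, follow with their values. The log2 fold changes were 1.84 for Gdf15, 1.10 for Xpc, 2.02 for Ddit4, 2.85 for Trp63, 1.06 for Sqstm1, −0.69 for Ccnd2, 1.45 for Cebpb, 0.88 for Egr1, 0.53 for Foxo3 and −1.97 for Steap3, with edgeR adjusted p of at most 0.0425. Steap3 averaged 1.18 CPM with 25(OH)D plus BGP and 4.59 CPM in control, and lost the call in each of the 6 fits that left out a library (adjusted p of 0.0554 to 0.184), without the filter on low counts (adjusted p = 0.108) and in a fit of the 2 groups alone (adjusted p = 0.0889). Ddit4 lost the call without control library 2 (adjusted p = 0.0517) and without the filter on low counts (adjusted p = 0.0993). Foxo3 lost it in 4 of 6 fits that left out a library, and Foxo3 and Ccnd2 lost it in a fit of the 2 groups alone.

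**Figure D5:**
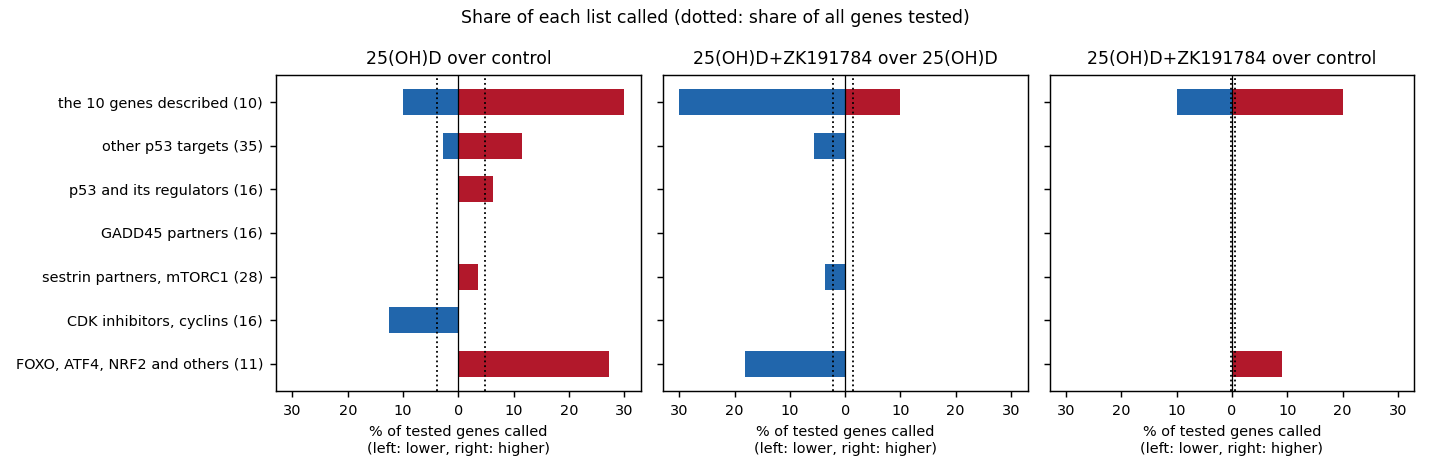
Percent of tested genes called by edgeR in the 10 genes and in each of 6 lists, lower to the left of 0 and higher to the right, for 25(OH)D against control and for 25(OH)D plus ZK191784 against 25(OH)D and against control, with the number of tested genes in brackets and the share of all genes tested as dotted lines. The GADD45 partners have 0 calls in these comparisons.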

How the data were processed

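RNA of 12 MC3T3-E1 libraries was sequenced by QuantSeq 3' mRNA-seq, per the labels. The authors deposited raw counts for each gene symbol in each library. Per the submitters' processing notes, STAR 2.7.9a, featureCounts of Subread 2.0.3, the genome mm39 and DESeq2 1.38.2 were used, with no role given for DESeq2. No source used here gives the annotation release, the strand setting or any filter, so overlapping and antisense genes cannot be told apart, and reads of near-identical copies may be split. Gene positions on mm39 are not given. Promoter letters come from RefSeq on GRCm38.p6.

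Of 56691 genes in the table, 20212 were at 0 throughout. The filter of edgeR (filterByExpr, min.count 10, min.total.count 15) left 14394 genes with 99.4% of the counts. All 10 genes passed it, so the exact permutation test planned for rarer genes was not needed. A robust quasi-likelihood model with TMM scaling and 1 coefficient per group was fitted in edgeR 4.0.16 (R 4.3.3) to the 12 libraries together, without a replicate block. The common biological coefficient of variation was 0.292. Genes were called at a Benjamini-Hochberg adjusted p under 0.05 over all genes tested. SEs are approximate, taken as the size of the log2 fold change over the root of its F statistic, and intervals are at 95%. CPM are TMM-scaled, except those of cell type markers, which are per 1000000 counts of the library total. Depth was 3318723 to 5170980 counts per library, which leaves low genes with few counts.

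The genes and lists were chosen with earlier results of these data known, and the library ratio came from that earlier work. Named were the 10 genes, up to 4 called genes of each list per comparison with the smallest p, Trp53, Mdm4, and the 3 genes most like each of the 3 of the 10 with the smallest p. The fit was tested on simulated data. Alternatives were RLE scaling, DESeq2 1.42.0, no filter, a filter at 2 CPM in 3 libraries, a replicate block, the library ratio as a covariate, only the 2 groups compared, and each library left out in turn. Python 3.11.15 with matplotlib 3.10.9 drew the figures.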

Additional observations from a re-analysis of the deposited data

How the results depend on the processing

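Over the 10 genes and 5 comparisons there were 50 results and 650 alternative values. Of 195 values for the 15 called results 171 kept the call, 24 lost it and 0 changed sign. Of the uncalled results 4 values passed the test and 37 changed sign. The number of the 10 genes called was the same or within 1.5 times under each alternative, except for 25(OH)D plus ZK191784 against 25(OH)D, where the replicate block gave 2 and leaving out 1 library gave 1 to 4 (a single gene when library 2 or 3 of ZK191784, or library 1 or 2 of 25(OH)D alone, was left out). The other ranges over left-out libraries were 4 to 5 for 25(OH)D against control, 4 to 4 for 25(OH)D plus BGP against control, 2 to 3 for 25(OH)D plus ZK191784 against control and 0 to 0 for 25(OH)D plus BGP against 25(OH)D.

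The number of all genes called moved more. Between 25(OH)D and control it was 2858 with the library ratio as a covariate, 763 with the 2 groups alone and 813 to 1266 with 1 library left out (813 without 25(OH)D library 2). Between 25(OH)D plus ZK191784 and 25(OH)D it was 1642 with the covariate, 334 with the replicate block, 797 by DESeq2 and 269 to 428 with 1 library left out, 328 or lower without each library but 25(OH)D library 3. Between 25(OH)D plus BGP and control it was 2680 with the covariate, 712 with the 2 groups alone and 794 to 1143 with 1 library left out. Between 25(OH)D plus ZK191784 and control it was 220 without a filter, 56 with the block, 673 with the covariate, 42 with the 2 groups alone, 265 by DESeq2 and 34 to 119 with 1 library left out, 62 or lower without each library but control library 3. Between 25(OH)D plus BGP and 25(OH)D it was 6 with the covariate and 0 to 0 with 1 library left out. The cause was not tested.

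Sign changes under settings that kept all libraries were Sesn3 at −0.03 for 25(OH)D against control, Mdm2 at −0.02 for 25(OH)D plus BGP against control, and Mdm2 at −0.04 and Ccng1 at −0.01 for 25(OH)D plus ZK191784 against control, all with the covariate, and Ccng1 at 0.01 for 25(OH)D plus BGP against 25(OH)D with the 2 groups alone. With 1 library left out, log2 fold changes that changed sign ranged as follows. For 25(OH)D against control they were −0.15 to 0.14 for Sesn3, −0.01 to 0.71 for Mdm2 and −0.34 to 0.20 for Ccng1. For 25(OH)D plus ZK191784 against 25(OH)D they were −0.38 to 0.06 for Mdm2. For 25(OH)D plus ZK191784 against control they were −0.16 to 0.20 for Sesn2, −0.15 to 0.54 for Mdm2 and −0.12 to 0.43 for Ccng1. For 25(OH)D plus BGP against control they were −0.0014 to 0.10 for Sesn2, −0.24 to 0.12 for Cdkn1a, −0.03 to 0.64 for Mdm2 and −0.34 to 0.19 for Ccng1. For 25(OH)D plus BGP against 25(OH)D they were −0.77 to 0.02 for Gadd45a, −0.23 to 0.24 for Gadd45b, −0.11 to 0.27 for Cdkn1a, −0.27 to 0.17 for Mdm2 and −0.19 to 0.21 for Ccng1. In the last comparison no value passed the test.

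Whether replicate numbers pair the libraries is not settled. Count columns with the same replicate number share a letter, and the labels give no meaning for it. The correlations rest on 3 libraries a group and cannot exclude a pairing. Correlations of same-numbered libraries ran from −0.71 to 0.61, and no comparison had all 3 pairs over 0.1. All 3 libraries of 25(OH)D plus ZK191784 correlated best with their own number in 25(OH)D, which is a hint from the data. For ZK191784 library 2 that value was 0.01, beside 0 with each other number, which is no correlation. The library ratio also fell from library 1 to library 3 in both groups, and its part in this order was not tested. With the replicate block Gadd45a was −2.06 (edgeR adjusted p = 0.0719) and Gadd45b −1.30 (adjusted p = 0.0671) for 25(OH)D plus ZK191784 against 25(OH)D, and Gadd45g was −1.0 (adjusted p = 0.0635) for 25(OH)D plus ZK191784 against control. For genes of the lists the block ended the calls of Egr1 at −0.57 (adjusted p = 0.0914), Xpc at −0.75 (adjusted p = 0.0656) and Sqstm1 at −0.94 (adjusted p = 0.0789) for 25(OH)D plus ZK191784 against 25(OH)D, and Cebpb at 0.66 (adjusted p = 0.14) for 25(OH)D plus ZK191784 against control. It also ended those of Steap3 at −2.39 (adjusted p = 0.0557) and E2f1 at −1.27 (adjusted p = 0.0909) for 25(OH)D against control, and of Steap3 at −1.97 (adjusted p = 0.105) and Foxo3 at 0.54 (adjusted p = 0.0706) for 25(OH)D plus BGP against control. List counts with the block were 3 other p53 targets and 1 CDK inhibitor or cyclin for 25(OH)D against control. For 25(OH)D plus ZK191784 against 25(OH)D they were 1 other p53 target, 0 sestrin partners and 1 transcription factor, and against control 0 transcription factors. With the covariate Ccng1 passed for 25(OH)D plus BGP against control, at −0.33 (adjusted p = 0.0487). The median difference over genes between RLE and TMM scaling was at most 0.02 in size on the log2 scale in each comparison. With 3 libraries a group, intervals of the uncalled genes still allow differences of the sizes printed with them.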
